A study of Mus musculus with 8 samples.

Results

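CDGC1 is a pluripotent cell line established from early testicular teratoma cells of newborn Dnd1-mutant mice, and its transcriptome was compared across all genes with that of control embryonic stem (ES) cells. Membership followed the sample titles: the 2 libraries titled CDGC1-P3-9 were set against the 2 libraries titled control ESC, which is 4 of the 8 libraries in the series. The CDGC1 cells carried the strain label 129Sv/Dnd1ter/ter/Oct4deltaPE-GFP, were homozygous for the Dnd1 Ter allele and were taken at passages 15 to 18. The control cells were E14tg2a, a wild-type 129/Ola ES line, at passages 10 to 12. Both were grown in DMEM with serum and leukaemia inhibitory factor (LIF), and total RNA was sequenced. A second derived line of the same label and passages, CDGC6 (2 libraries), is given beside them where it bears on a value. The 2 libraries of ES cells with Dnd1 knockdown entered only the estimate of spread, the filter that chose the units tested and the alternative settings. Each group is 1 line, so origin, strain, Dnd1 genotype, passage and the choice of line cannot be told apart between CDGC1 and control.

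As background, pluripotent mouse cells exist in a series of states. Naive cells, the state of ES cells in LIF and of the preimplantation epiblast, use a network of transcription factors that includes Esrrb, Klf4, Tfcp2l1 and Nr0b1. After implantation the epiblast keeps Pou5f1 and Nanog, replaces the naive network with Otx2, Zic2, Pou3f1 and Fgf5, methylates much of its genome and responds to NODAL, FGF and WNT signals that start the primitive streak. Dnd1 encodes an RNA-binding protein of germ cells, and the Ter allele is a known cause of testicular teratoma in 129 mice. The Oct4deltaPE-GFP reporter uses an Oct4 regulatory region without its proximal enhancer and is known for activity in naive and germ line cells.

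Levels are FPKM (fragments per kilobase of transcript, scaled to the mapped fragments of the library) as the authors deposited them, summed per gene symbol. Symbols that the annotation merges into 1 entry are named together, because their reads cannot be separated. Paired values below are the first and the second library of a group. Differences are CDGC1 minus control on the log2(FPKM + 1) scale with their standard error (SE), and adjusted p-values are from limma with Benjamini-Hochberg adjustment over the 11900 units that reached 1 FPKM in at least 2 of the 8 libraries. A difference was called at an adjusted p under 0.05. The labels leave unstated whether both libraries of a line were grown separately, and the p-values therefore reflect the scatter of these libraries alone, possibly technical scatter. Replicates of a group correlated at 0.977 to 0.984 across the tested units, and their median absolute log2 gap was 0.153 in CDGC1 and 0.053 in control. Read depth is unknown because FPKM carry no counts. The joint entry of Dnd1 and its neighbour Hars stood at 81.4 and 71.5 FPKM in CDGC1 and at 65.8 and 65.04 in control, which checks no label because the Ter allele is a point mutation and the entry is shared. Hprt, which E14tg2a is known to lack, stood at 124 and 121 FPKM in CDGC1 and 0.359 and 0.455 in control.

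Of the 11900 units tested, 6009 (50.5%) differed between CDGC1 and control by limma. CDGC1 was higher in 2801 (23.5%) and lower in 3208 (27.0%). Changes of at least 2-fold were found in 792 units that were higher (6.66%) and 1142 that were lower (9.6%), and changes of at least 4-fold in 184 (1.55%) and 374 (3.14%). The median difference over all units was -0.0319 on the log2 scale. The plot of called shares by list sets each gene group described below against these background shares.

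**Figure D1:**
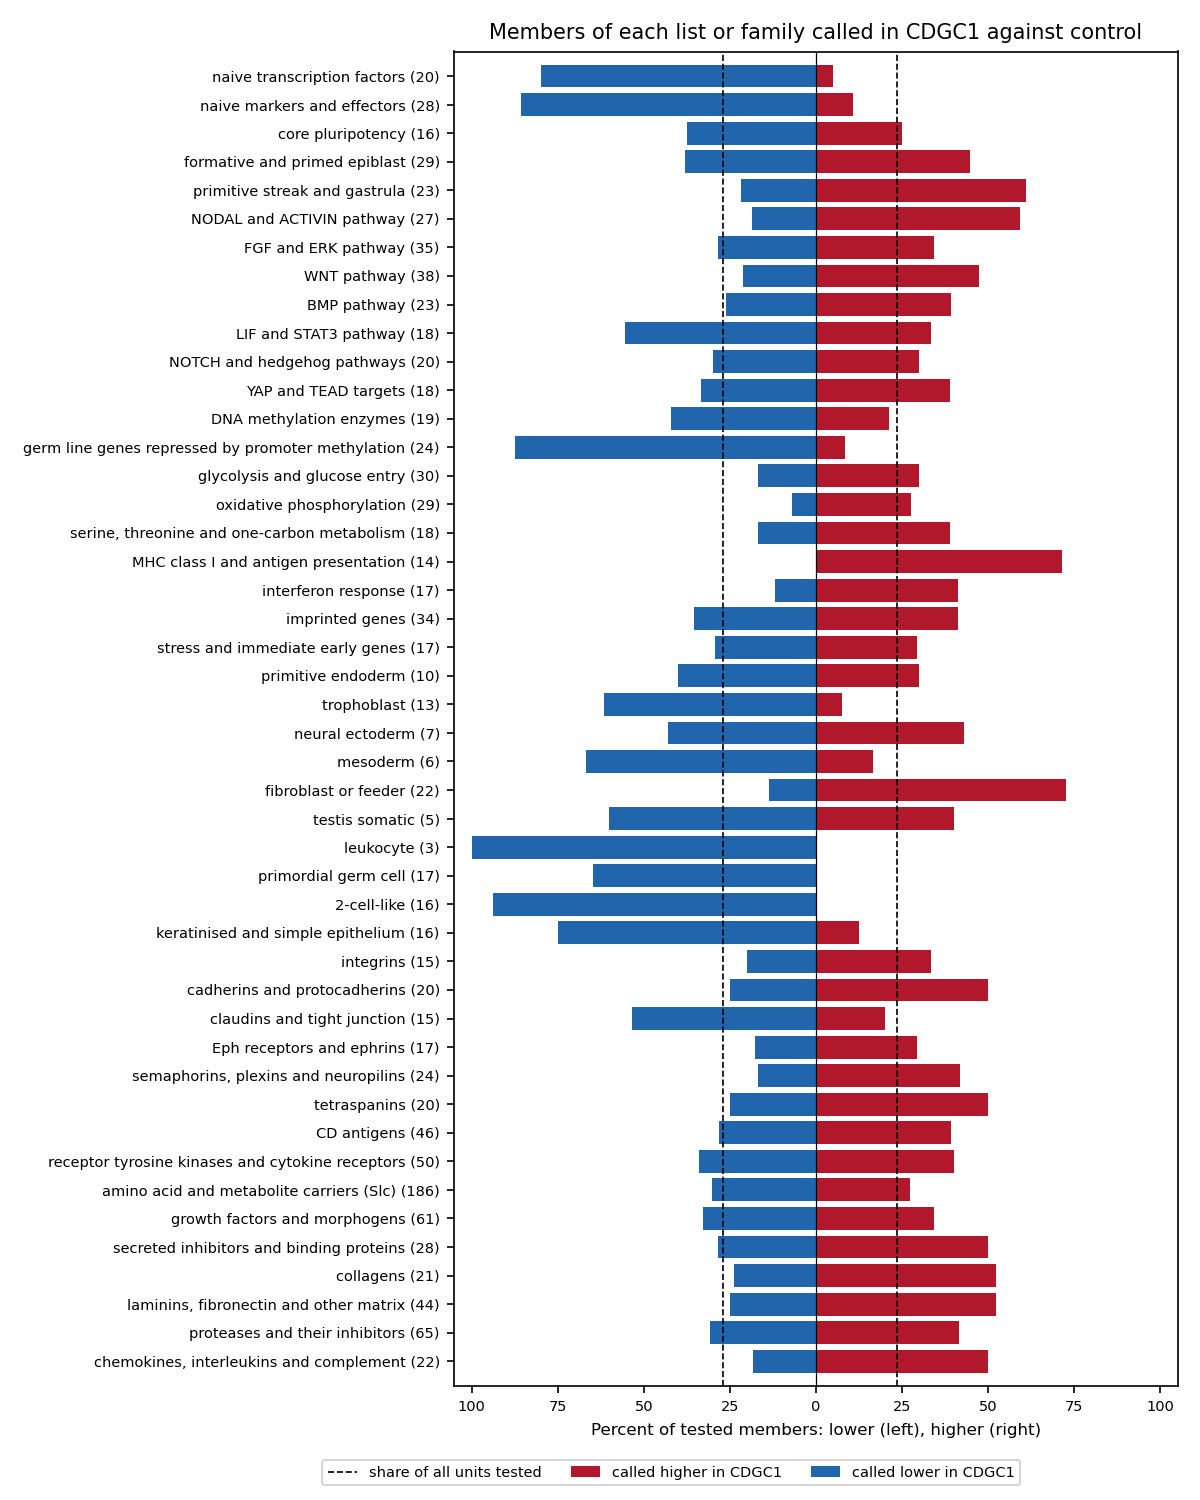
Percent of the tested members of each gene list or family called higher (red, right) or lower (blue, left) in CDGC1 against control by limma, with the number of tested members in parentheses and dashed lines at the shares over all 11900 units (23.5% and 27.0%). The naive lists, the germ line list and the 2-cell-like list lie mostly to the left, and the streak, NODAL, MHC class I and fibroblast lists mostly to the right.

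The naive transcription factor network was low in CDGC1. All 20 listed factors were tested: 16 fell, 1 rose and 3 did not pass. Their median log2 difference was -2.62 against -0.0319 over all units. Of the 20, 8 were under 1 FPKM in both CDGC1 libraries and passed the filter only through other libraries. The count therefore describes the list and is no test of it. Zfp42, the Rex1 gene used as a naive reporter, was at 0.022 and 0 FPKM in CDGC1 and 335 and 352 in control (log2 difference -8.41 ± 0.17 (SE), adjusted p = 1.74e-06). Nr0b1, which encodes the repressor DAX1, was at 0.0221 and 0 against 44.5 and 47.2 FPKM (log2 difference -5.53 ± 0.27, adjusted p = 2.8e-05). For both genes CDGC1 was at or next to 0 in each library while the controls were high, and the groups did not overlap. Klf4, a Krüppel-like factor and target of LIF signalling, was at 1.05 and 1.19 FPKM in CDGC1 against 35.1 and 37.3 in control (log2 difference -4.13 ± 0.13, adjusted p = 8.37e-06). Tfcp2l1, another factor downstream of STAT3, was at 0.904 and 0.857 against 26.5 and 25.9 FPKM (log2 difference -3.86 ± 0.13, adjusted p = 1.05e-05). Tbx3, a T-box repressor, was at 0.169 and 0.0766 against 8.73 and 7.88 FPKM (log2 difference -3.05 ± 0.24, adjusted p = 0.000163). Each of these factors kept a residual level under 2 FPKM in CDGC1, with both libraries below both controls. The 1 riser, the BTB-domain factor Nacc1, was at 70.3 and 66.5 against 56.5 and 55.4 FPKM (log2 difference 0.28 ± 0.10, adjusted p = 0.0483), and its call was lost without any one of the CDGC1, CDGC6 or control libraries.

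The promoter of Zfp42 is shown because this gene had the largest fall among the naive factors and its promoter holds motifs of the POU and Klf families. It is the RefSeq promoter window, from 250 bases before to 50 after the transcription start, at chr8:43306960-43307259 on the minus strand of GRCm38.p6, written 5′ to 3′ with the motif matches in capitals.
Zfp42: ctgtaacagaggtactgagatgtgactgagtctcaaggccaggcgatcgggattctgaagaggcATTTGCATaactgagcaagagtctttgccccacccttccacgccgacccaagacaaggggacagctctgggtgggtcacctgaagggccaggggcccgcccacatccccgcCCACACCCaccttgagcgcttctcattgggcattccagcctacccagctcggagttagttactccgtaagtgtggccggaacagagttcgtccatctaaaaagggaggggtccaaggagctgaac
The first capital run is the octamer motif ATTTGCAT on the gene's strand, 186 bases before the start. The second is the Klf-type motif GGGTGTGG, read on the opposite strand, 75 bases before the start. Among the 8483 promoters of tested units, 1.4% hold ATTTGCAT and 3.68% hold GGGTGTGG on either strand. Of the naive factors that fell, 11 had a RefSeq promoter, and among these Zfp42 alone held either motif, so its promoter is not typical of the list. The window holds 11 CpG dinucleotides. A match is a description of the sequence and not evidence of binding.

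Other naive genes and effectors were low as well. Of 32 listed symbols 31 were found and 28 were tested: 24 fell, 3 rose and 1 did not pass, with a median of -3.24. Of the 31 found, 17 were under 1 FPKM in both CDGC1 libraries, so many passed the filter only through other libraries. The count is therefore a description. Morc1, a germ line ATPase, was at 0.037 and 0.0696 FPKM in CDGC1 and 59.01 and 68.8 in control (log2 difference -5.94 ± 0.20, adjusted p = 1.04e-05). Mylpf, a myosin light chain gene, was at 2.46 and 1.75 against 196 and 221 FPKM (log2 difference -6.09 ± 0.19, adjusted p = 8.37e-06). Dppa4, a chromatin protein of pluripotent cells, was at 0.317 and 0.657 against 109.9 and 112 FPKM (log2 difference -6.25 ± 0.28, adjusted p = 2.02e-05). In all of these CDGC1 was under 3 FPKM and the controls were above 50 FPKM. The largest fall of the list was that of the joint entry Dppa5a,Ooep, which holds an RNA-binding protein of ES cells and a maternal factor, at 2.24 and 1.57 FPKM in CDGC1 and 2156 and 2418 in control (log2 difference -9.63 ± 0.23, adjusted p = 3.5e-06). The X-linked gene Tex13 went the other way, at 17.05 and 40.1 FPKM in CDGC1, 0.0496 and 0.0481 in control and 0.0787 and 0.106 in CDGC6 (log2 difference from control 4.70 ± 0.35, adjusted p = 0.000133). It was high in both CDGC1 libraries, which differed from each other by more than 2-fold, and next to 0 elsewhere. The other risers were Tdgf1, the NODAL co-receptor, and the joint entry Eno1,Eno1b. Both calls were lost when 1 CDGC1 or 1 control library was left out, and 1 riser was left without CDGC1 library 1 or 2 and without control library 1 or 2.

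**Figure D2:**
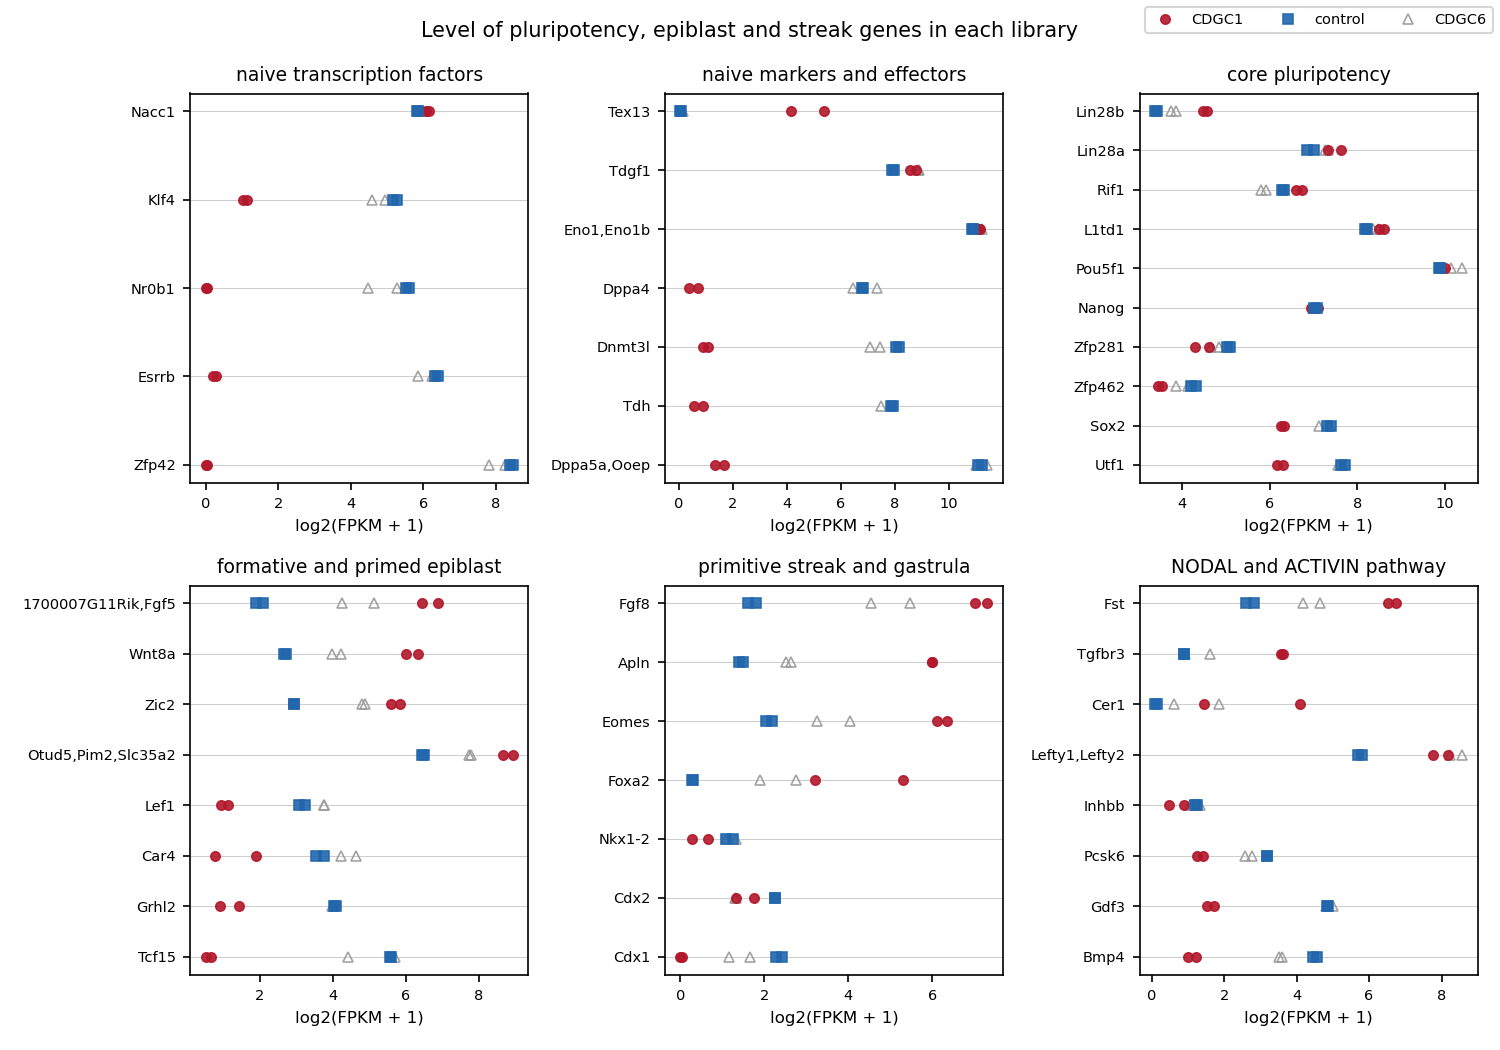
Level, as log2(FPKM + 1), of the genes with the largest called changes from 6 lists, and of Pou5f1 and Nanog, in each CDGC1 (red circles), control (blue squares) and CDGC6 (grey triangles) library. Naive genes sit near 0 in CDGC1 and high in control, Pou5f1 and Nanog lie close together in CDGC1 and control, and Fgf8, Eomes, Apln, Fst and Wnt8a sit highest in CDGC1.

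Of the core factors shared by naive and primed cells, Pou5f1 and Nanog stood at high levels in both lines. Pou5f1, which encodes OCT4, was at 951 and 1027 FPKM in CDGC1 and 944 and 934 in control (log2 difference 0.07 ± 0.11, adjusted p = 0.621). Nanog was at 137 and 122 against 134 and 128 FPKM (log2 difference -0.02 ± 0.19, adjusted p = 0.946). The Pou5f1 libraries of CDGC1 lay just above the controls and those of Nanog overlapped them. Sox2, the partner of OCT4, was at 75.1 and 79.6 against 158 and 167 FPKM and fell (log2 difference -1.06 ± 0.14, adjusted p = 0.00122). Utf1, a chromatin factor of ES cells, was at 70.9 and 77.9 against 195 and 209.8 FPKM and fell (log2 difference -1.43 ± 0.08, adjusted p = 4.67e-05). Lin28b, a blocker of let-7 miRNA maturation, was at 22.8 and 21.2 against 9.77 and 9.45 FPKM and rose (log2 difference 1.11 ± 0.08, adjusted p = 0.000126). For Sox2 and Utf1 both CDGC1 libraries were below both controls, and for Lin28b both were above. Of the 16 core genes 4 rose and 6 fell, with a median of -0.193, and these counts rest on the control libraries: 1 rose without control library 2, and 3 fell without control library 1.

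Genes of the formative and primed epiblast moved in both directions. Of 32 listed symbols 29 were tested: 13 rose and 11 fell, with a median of 0.35. The joint entry 1700007G11Rik,Fgf5, which holds the primed marker Fgf5, was at 86.2 and 117 FPKM in CDGC1, 3.29 and 2.73 in control and 34.3 and 18.02 in CDGC6 (log2 difference from control 4.66 ± 0.30, adjusted p = 7.88e-05). Wnt8a, a WNT ligand of the posterior epiblast, was at 63.3 and 79.3 FPKM in CDGC1 and 5.65 and 5.34 in control (log2 difference 3.47 ± 0.16, adjusted p = 2.3e-05). Zic2, a zinc finger factor of the formative state, was at 47.3 and 56.1 against 6.65 and 6.69 FPKM (log2 difference 2.77 ± 0.13, adjusted p = 2.5e-05). In each case both CDGC1 libraries were above both controls, and CDGC6 lay between. Among the members that fell, Tcf15, a helix-loop-helix factor that primes naive cells for exit, was at 0.435 and 0.584 against 46.8 and 47.1 FPKM (log2 difference -4.99 ± 0.47, adjusted p = 0.000362). Grhl2, a factor that opens epithelial enhancers in the epiblast, was at 0.867 and 1.69 against 15.9 and 15.4 FPKM (log2 difference -2.89 ± 0.17, adjusted p = 5.71e-05). Lef1, a nuclear effector of WNT signalling, was at 1.197 and 0.902 against 8.54 and 7.503 FPKM (log2 difference -2.14 ± 0.11, adjusted p = 3.36e-05). All 3 were low in both CDGC1 libraries and high in both controls and both CDGC6 libraries. Otx2, a head and epiblast homeobox factor named after its values were seen, was at 25.5 and 35.8 FPKM in CDGC1 and 10.1 and 9.297 in control (log2 difference 1.55 ± 0.20, adjusted p = 0.00136). The de novo methyltransferase Dnmt3b, named likewise, was at 144 and 180.1 against 136 and 106 FPKM and did not pass (log2 difference 0.42 ± 0.16, adjusted p = 0.0762).

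Early primitive streak genes were high in CDGC1. Of 33 listed genes of the streak and gastrula 23 were tested: 14 rose and 5 fell, with a median of 1.59. Of the 33, 12 were under 1 FPKM in both CDGC1 libraries. Risers such as Foxa2 and Cer1 were under 1 FPKM in both controls and passed the filter only through other libraries. The count therefore describes the list and is no test of it. Fgf8, an FGF ligand needed for cell movement through the streak, was at 128 and 158 FPKM in CDGC1, 2.04 and 2.48 in control and 43.04 and 22.1 in CDGC6 (log2 difference from control 5.46 ± 0.29, adjusted p = 4.22e-05). Eomes, a T-box factor of the anterior streak and of trophoblast, was at 68.4 and 80.03 FPKM in CDGC1 and 3.08 and 3.53 in control (log2 difference 4.12 ± 0.25, adjusted p = 6.68e-05). Apln, which encodes a peptide ligand of the apelin receptor, was at 62.7 and 62.3 against 1.63 and 1.802 FPKM (log2 difference 4.55 ± 0.09, adjusted p = 1.65e-06). All 3 were high in both CDGC1 libraries, with no overlap with control. Foxa2, a forkhead factor of the anterior streak and endoderm, was at 8.15 and 38.6 FPKM in CDGC1 against 0.229 and 0.214 in control (log2 difference 3.96 ± 0.65, adjusted p = 0.00339). Its CDGC1 libraries both exceeded the controls but differed from each other by more than 4-fold. Of the 14 risers 4 differed by at least 2-fold between the CDGC1 libraries, against 300 of all 11900 units (2.52%). T, which encodes Brachyury, was at 53.9 and 77.1 against 18.1 and 23.7 FPKM and at 69.1 and 43.7 FPKM in CDGC6 (log2 difference from control 1.59 ± 0.27, adjusted p = 0.0035). Cyp26a1, the retinoic acid hydroxylase of the early streak, was at 43.3 and 63.4 against 2.23 and 3.77 FPKM (log2 difference 3.77 ± 0.26, adjusted p = 0.000113).

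Some genes of later stages were low in both lines. Mesp1, a factor of nascent mesoderm, was at 0.322 and 0.0973 FPKM in CDGC1 and 0.145 and 0.176 in control, and Tbx6, of presomitic mesoderm, at 0.302 and 0.394 against 0.505 and 0.447. Msgn1, a target of T, was at 0.678 and 0.468 against 0.653 and 1.01 FPKM. Sox17, of definitive endoderm, was at 0.0456 and 0.864 against 0.0646 and 0.0683 FPKM. These 4 genes, chosen as low, stayed near or under 1 FPKM in all 4 libraries and were not tested, and Sox17 was highest in CDGC1 library 2. Of the other endoderm genes on the list, Foxa2 rose as given above, and Cer1 is described with the NODAL pathway. Cdx1, a caudal homeobox gene of the posterior streak, was at 0.0227 and 0 FPKM in CDGC1 against 3.86 and 4.36 in control and fell (log2 difference -2.34 ± 0.31, adjusted p = 0.00148). The number of streak genes that fell was 2 without control library 1 and 3 without control library 2. In bulk RNA, fewer cells of a kind and less RNA per cell cannot be told apart.

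In the NODAL and ACTIVIN pathway, 16 of 27 tested genes rose and 5 fell, with a median of 0.58. Cer1 and Tgfbr3, among the risers, were under 1 FPKM in both controls and passed the filter only through other libraries. This count is a description as well. On the side of ligands and inhibitors, the joint entry of the antagonists Lefty1,Lefty2 was at 217 and 288 FPKM in CDGC1, 50.8 and 55.1 in control and 301 and 379 in CDGC6 (log2 difference from control 2.22 ± 0.26, adjusted p = 0.000892). Fst, which encodes the ACTIVIN-binding protein follistatin, was at 107 and 90.9 FPKM in CDGC1 and 5.08 and 6.08 in control (log2 difference 3.92 ± 0.24, adjusted p = 6.55e-05). Nodal itself, named after its values were seen, was at 81.9 and 64.4 against 39.5 and 37.3 FPKM (log2 difference 0.90 ± 0.17, adjusted p = 0.00602). All 3 were higher in both CDGC1 libraries than in either control, and Lefty1,Lefty2 was as high in CDGC6. Tgfbr3, the co-receptor betaglycan, was at 11.4 and 10.97 against 0.859 and 0.864 FPKM (log2 difference 2.71 ± 0.22, adjusted p = 0.000187). Cer1, an antagonist secreted by anterior endoderm, was at 1.74 and 16.1 against 0.103 and 0.0699 FPKM (log2 difference 2.65 ± 0.83, adjusted p = 0.0382). The Cer1 libraries of CDGC1 stood far apart, and the call was lost without CDGC1 library 2 and without any one of the CDGC6, control or Dnd1 knockdown libraries (adjusted p over all alternatives from 0.00295 to 0.119). Gdf3, a TGF-beta family ligand of naive cells, was at 1.91 and 2.304 against 27.8 and 28.1 FPKM and fell (log2 difference -3.22 ± 0.16, adjusted p = 2.8e-05). Pcsk6, a convertase that matures NODAL, was at 1.68 and 1.38 against 8.16 and 8.14 FPKM and fell (log2 difference -1.86 ± 0.16, adjusted p = 0.000228). The number that fell was 3 without CDGC1 library 1, control library 1 or 2 or Dnd1 knockdown library 1 or 2.

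FGF and ERK genes were split, with 34.3% higher and 28.6% lower, against 23.5% and 27.0% of all units. Of 35 tested 12 rose and 10 fell, with a median of 0.0137, and 5 fell without control library 1 and 6 without control library 2. The ligands differed: besides Fgf8 and the Fgf5 entry, which rose, Fgf4, the ligand made by naive cells, was at 2.67 and 1.76 FPKM in CDGC1 against 26.9 and 24.05 in control and fell (log2 difference -3.05 ± 0.24, adjusted p = 0.000175). The receptor gene Fgfr2 was at 2.17 and 1.44 against 5.35 and 4.96 FPKM and fell (log2 difference -1.15 ± 0.14, adjusted p = 0.000916). Spry4, a feedback inhibitor of ERK signalling, was at 10.5 and 8.78 against 23.8 and 21.4 FPKM and fell (log2 difference -1.15 ± 0.15, adjusted p = 0.00133). In these 3 genes both CDGC1 libraries were below both controls. Fos, an immediate early target, was at 16.2 and 28.9 against 3.35 and 4.15 FPKM and rose (log2 difference 2.26 ± 0.30, adjusted p = 0.00135). Both CDGC1 libraries were above the controls, CDGC6 was at 3.89 and 3.73 FPKM, and Fos also belongs to the stress and immediate early list, of which 5 of 17 rose and 5 fell (2 rose without control library 1). Whether handling of the cells had a part in Fos was not tested.

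In the WNT pathway 18 of 38 tested genes rose and 8 fell, with a median of 0.379, and 5 fell without control library 2. Among ligands, Wnt3, the ligand that initiates the streak, was at 51.1 and 37.7 FPKM in CDGC1, 5.01 and 5.46 in control and 6.296 and 4.51 in CDGC6 (log2 difference from control 2.85 ± 0.19, adjusted p = 9.34e-05). Wnt11, a ligand of non-canonical signalling, was at 4.204 and 6.58 FPKM in CDGC1 and 0.267 and 0.264 in control (log2 difference 2.31 ± 0.20, adjusted p = 0.000243). Wnt7b was at 1.11 and 0.465 against 5.09 and 4.61 FPKM and fell (log2 difference -1.73 ± 0.18, adjusted p = 0.000517). Wnt3 and Wnt11 were higher in both CDGC1 libraries than in any control or CDGC6 library. Wnt7b was lower in both CDGC1 libraries than in both controls. It was low in CDGC6 as well, at 1.40 and 1.12 FPKM. Its difference between the derived lines did not pass (log2 difference -0.36 ± 0.18, adjusted p = 0.149). Among secreted inhibitors, Frzb, a soluble Frizzled-related protein, was at 7.697 and 5.797 against 0.105 and 0.0452 FPKM and rose (log2 difference 2.84 ± 0.15, adjusted p = 4.03e-05). Frzb and Wnt11 were under 1 FPKM in both controls and passed the filter only through other libraries, so the pathway count is a description. Shisa3, whose product retains Frizzled and FGF receptors in the endoplasmic reticulum, was at 13.2 and 13.7 against 0.374 and 0.441 FPKM and rose (log2 difference 3.36 ± 0.13, adjusted p = 1.41e-05).

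In the BMP pathway 9 of 23 tested genes rose (39.1%) and 6 fell (26.1%), with a median of -0.139. Over all units 23.5% rose and 27.0% fell. Fewer of the pathway genes rose without control library 1. The ligands differed: Bmp4, which maintains naive cells in serum-free culture, was at 1.32 and 1.02 FPKM in CDGC1 against 20.7 and 22.5 in control (log2 difference -3.39 ± 0.11, adjusted p = 8.42e-06). Bmp8b was at 0.18 and 0.0823 against 3.17 and 2.82 FPKM (log2 difference -1.82 ± 0.10, adjusted p = 4.08e-05). Bmp7 was at 6.204 and 9.57 against 1.61 and 1.73 FPKM (log2 difference 1.71 ± 0.20, adjusted p = 0.000791). So Bmp4 and Bmp8b were lower, and Bmp7 higher, in both CDGC1 libraries than in both controls. The receptor gene Acvr1 was at 11.9 and 10.1 against 2.92 and 2.87 FPKM and rose (log2 difference 1.62 ± 0.11, adjusted p = 0.00011). Grem1, a secreted BMP antagonist, was at 2.3996 and 3.73 against 0.198 and 0.192 FPKM and at 2.43 and 4.09 FPKM in CDGC6 (log2 difference from control 1.75 ± 0.23, adjusted p = 0.00137). Id1, a direct BMP target, was at 79.4 and 29.9 against 108 and 96.6 FPKM and did not pass (log2 difference -1.05 ± 0.41, adjusted p = 0.0783).

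LIF was present in the medium of both lines, and genes of its pathway fell more often than they rose: 10 of 18 tested fell and 6 rose, with a median of -0.358, and 3 rose without control library 1 or 2. Klf4, Tfcp2l1 and Gbx2, which fell, also belong to the naive factor list and are counted there too. The receptor gene Lifr was at 1.74 and 1.95 FPKM in CDGC1 against 7.89 and 7.44 in control (log2 difference -1.61 ± 0.09, adjusted p = 4.97e-05). Bcl3, an NF-kappaB cofactor induced by LIF, was at 1.06 and 1.75 against 20.2 and 21.2 FPKM (log2 difference -3.19 ± 0.26, adjusted p = 0.0002). Gbx2, a STAT3 target that supports self-renewal, was at 2.55 and 2.52 against 19.9 and 21.9 FPKM (log2 difference -2.63 ± 0.17, adjusted p = 9.37e-05). All 3 were lower in both CDGC1 libraries than in any control or CDGC6 library. Stat3, named after its values were seen, was at 15.3 and 16.1 against 24.1 and 24.5 FPKM and fell (log2 difference -0.60 ± 0.07, adjusted p = 0.000931). The kinase gene Jak2 was at 9.55 and 8.29 against 3.38 and 3.65 FPKM and rose (log2 difference 1.13 ± 0.13, adjusted p = 0.00067).

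The NOTCH and hedgehog list was even, with 6 of 20 tested genes higher (30.0%) and 6 lower (30.0%), against 23.5% and 27.0% of all units. Hes1, a NOTCH effector that the other pathways also regulate, was at 26.99 and 31.5 FPKM in CDGC1 against 10.6 and 11.8 in control (log2 difference 1.31 ± 0.11, adjusted p = 0.000265). Rbpj, the DNA-binding partner of NOTCH, was at 22.6 and 18.5 against 65.3 and 61.5 FPKM (log2 difference -1.58 ± 0.10, adjusted p = 7.42e-05). Smo, the transducer of hedgehog signals, was at 25.6 and 32.2 against 10.6 and 10.6 FPKM (log2 difference 1.35 ± 0.15, adjusted p = 0.00062). Hes1 and Smo were thus higher and Rbpj lower in both CDGC1 libraries. Of 18 YAP and TEAD genes 7 rose and 6 fell, and 2 fell without control library 1 or 2. The classical targets diverged: Ctgf was at 7.21 and 4.52 against 57.5 and 58.3 FPKM (log2 difference -3.13 ± 0.17, adjusted p = 4.9e-05). Cyr61 was at 162 and 181 against 75.5 and 90.6 FPKM (log2 difference 1.04 ± 0.17, adjusted p = 0.00352). Both encode matricellular proteins, and one fell while the other rose. Among the factors, Wwtr1, which encodes TAZ, was at 34.5 and 25.8 against 12.8 and 13.4 FPKM and rose (log2 difference 1.13 ± 0.15, adjusted p = 0.00124).

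Genes that act on DNA methylation were mixed. Of 19 tested 4 rose, 8 fell and 7 did not pass, with a median of -0.217, and 2 rose without control library 2. Dnmt3l, the cofactor of the de novo enzymes in naive and germ cells, was at 0.883 and 1.097 FPKM in CDGC1 and 282 and 264 in control. Tet2, a 5-methylcytosine oxidase, was at 0.25 and 0.312 against 7.68 and 7.09 FPKM (log2 difference -2.71 ± 0.15, adjusted p = 5.06e-05). Zfp57, which protects methylation at imprints, was at 13.8 and 26.7 against 114 and 129.9 FPKM (log2 difference -2.60 ± 0.31, adjusted p = 0.000928). All 3 were lower in both CDGC1 libraries than in any control or CDGC6 library. Uhrf2, a reader of hydroxymethylated DNA, was at 36.1 and 35.4 against 20.1 and 20.6 FPKM and rose (log2 difference 0.78 ± 0.10, adjusted p = 0.0011).

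The listed germ line genes are known to depend on promoter methylation for their silence in somatic cells. Of 33 found, 24 were tested: 21 fell and 2 rose, with a median of -1.85, and 10 of the 33 were listed at 0 in both CDGC1 libraries. Leaving out any single library also gave counts of 21 and 2. Many of these genes passed the filter only through the libraries where they were high, so the count describes them and is no test of the list. Sycp3, of the synaptonemal complex, was listed at 0 in both CDGC1 libraries, at 43.5 and 40.1 FPKM in control and at 15.7 and 22.9 FPKM in CDGC6 (adjusted p against control = 7.75e-06). Ddx4, the Vasa helicase, was at 0.0137 and 0.0221 FPKM in CDGC1, 15.5 and 15.4 in control and 9.62 and 11.8 in CDGC6 (log2 difference from control -4.02 ± 0.12, adjusted p = 7.23e-06). Tdrd12, of the piRNA pathway, was at 0.0496 and 0.16 FPKM in CDGC1, 22.3 and 20.04 in control and 30.6 and 38.9 in CDGC6 (log2 difference from control -4.33 ± 0.14, adjusted p = 8.37e-06). CDGC1 stood at or next to 0 while the other derived line and the controls expressed all 3 genes. Rhox5, an X-linked homeobox gene, was at 3.18 and 3.33 against 52.1 and 49.2 FPKM (log2 difference -3.60 ± 0.13, adjusted p = 1.14e-05). The risers were X-linked as well: the joint entry Xlr3a,Xlr3c was at 30.2 and 45.7 against 1.19 and 1.18 FPKM (log2 difference 4.13 ± 0.22, adjusted p = 4.08e-05), and Xlr4a was at 4.72 and 6.17 against 0.0897 and 0.0642 FPKM (log2 difference 2.57 ± 0.16, adjusted p = 6.68e-05). The Xlr genes are near-identical copies, so how their reads were divided among them is uncertain.

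The promoters of Sycp3 and Ddx4 are shown because methylation acts on CpG dinucleotides, which are in capitals. Both are RefSeq windows of GRCm38.p6, at chr10:88459337-88459636 on the plus strand and chr13:112652261-112652560 on the minus strand.
Sycp3: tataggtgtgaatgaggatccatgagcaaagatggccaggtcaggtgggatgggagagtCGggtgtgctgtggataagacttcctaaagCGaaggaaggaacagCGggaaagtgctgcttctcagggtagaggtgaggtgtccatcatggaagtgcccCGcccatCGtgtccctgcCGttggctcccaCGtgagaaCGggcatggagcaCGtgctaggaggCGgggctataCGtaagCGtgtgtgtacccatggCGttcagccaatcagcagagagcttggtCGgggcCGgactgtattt
Ddx4: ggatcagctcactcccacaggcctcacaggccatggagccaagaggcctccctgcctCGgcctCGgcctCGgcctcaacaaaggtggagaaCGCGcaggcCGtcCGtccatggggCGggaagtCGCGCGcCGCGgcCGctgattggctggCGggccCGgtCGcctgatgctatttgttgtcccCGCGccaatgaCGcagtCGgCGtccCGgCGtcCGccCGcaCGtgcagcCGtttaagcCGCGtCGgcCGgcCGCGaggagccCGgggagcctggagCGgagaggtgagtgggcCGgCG
The Sycp3 window holds 15 CpG and the Ddx4 window 38. Of the 21 germ line genes that fell, 19 had a promoter in the table, with a median of 20 CpG and a range of 5 to 38, against a median of 21 over all 8483 promoters. Methylation itself was not measured.

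Imprinted genes, which are expressed from 1 parental copy, moved in both directions. Of 34 tested 14 rose and 12 fell. They were then split by the allele known to be expressed, a split made after the values were seen. Of 10 maternally expressed units 8 fell and none rose (median -4.69). Of 20 paternally expressed units 12 rose and 4 fell (median 0.92). Under 1 FPKM in both CDGC1 libraries were 6 maternal and 5 paternal units, which passed the filter only through other libraries. Units of the same cluster are not independent, so these counts are a description. Phlda2, a maternally expressed growth restrictor, was listed at 0 in both CDGC1 libraries, at 56.5 and 56.98 FPKM in control and at 10.3 and 17.7 FPKM in CDGC6 (adjusted p against control = 1.45e-05). Cdkn1c, the p57 cell cycle inhibitor, was at 0 and 0.0333 FPKM in CDGC1, 32.6 and 29.8 in control and 4.31 and 6.71 in CDGC6 (log2 difference from control -4.98 ± 0.18, adjusted p = 1.09e-05). Igf2r, the decoy receptor for IGF2, was at 0.761 and 0.747 FPKM in CDGC1, 16.9 and 17.6 in control and 16.5 and 13.2 in CDGC6 (log2 difference from control -3.38 ± 0.12, adjusted p = 1.09e-05). All 3 were near or at 0 in CDGC1 and expressed in both other groups. On chromosome 12, the maternally expressed long RNA Meg3 was at 0.122 and 1.29 FPKM in CDGC1, 101 and 96.7 in control and 218 and 208 in CDGC6 (log2 difference from control -5.96 ± 0.32, adjusted p = 4.43e-05). The paternally expressed protein gene of the same cluster, Dlk1, was also low, at 0.0183 and 0.0274 against 1.72 and 1.66 FPKM (log2 difference -1.39 ± 0.09, adjusted p = 7.26e-05).

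Among paternally expressed genes, Peg3, a zinc finger gene, was at 156 and 143 FPKM in CDGC1, 15.3 and 15.6 in control and 46.8 and 28.6 in CDGC6 (log2 difference from control 3.19 ± 0.22, adjusted p = 0.000103). Magel2, of the Prader-Willi region, was at 12.9 and 15.7 FPKM in CDGC1 against 0.741 and 0.64 in control (log2 difference 3.17 ± 0.14, adjusted p = 2e-05). The joint entry Hymai,Plagl1, which holds a zinc finger regulator of imprinted genes, was at 10.4 and 7.1000 against 0.35 and 0.352 FPKM (log2 difference 2.83 ± 0.16, adjusted p = 5.68e-05). Each was higher in both CDGC1 libraries than in both controls. Slc38a4, an amino acid carrier expressed from the paternal copy, was low instead, at 0.0565 and 0.0228 against 66.5 and 62.8 FPKM (log2 difference -5.98 ± 0.16, adjusted p = 4.45e-06). Kcnq1ot1, the long RNA that silences the Cdkn1c and Phlda2 cluster, was at 0.264 and 0.361 against 2.92 and 3.08 FPKM and fell (log2 difference -1.61 ± 0.11, adjusted p = 8.86e-05). Alleles were not distinguished in these files.

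**Figure D3:**
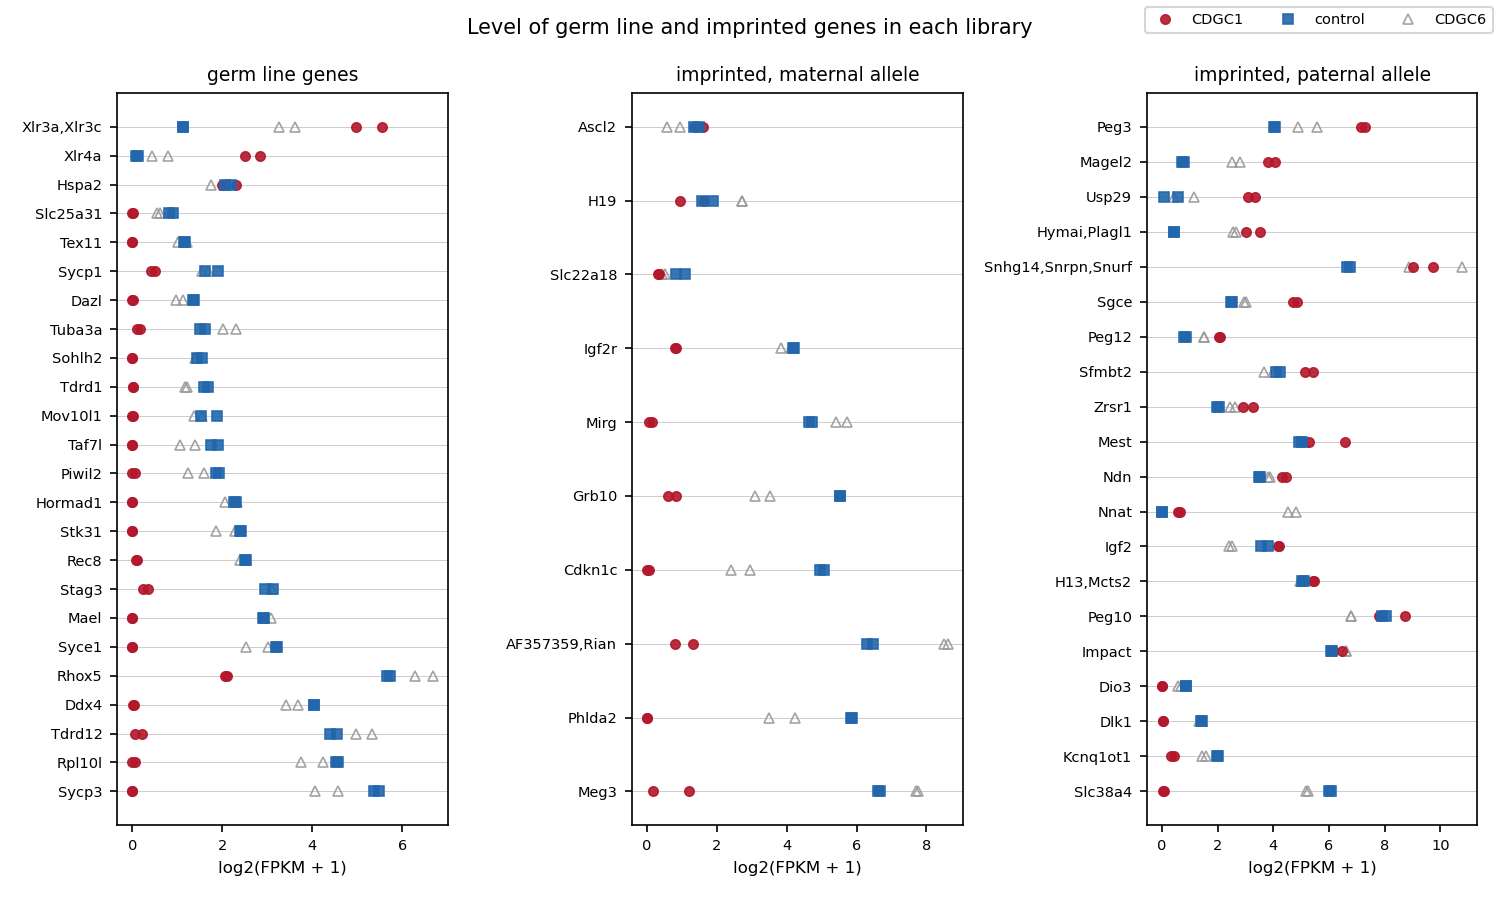
Level, as log2(FPKM + 1), of each tested germ line gene and of imprinted genes grouped by expressed allele, in each CDGC1 (red circles), control (blue squares) and CDGC6 (grey triangles) library. CDGC1 sits at or near 0 for most germ line units that fell, with Rhox5 above the rest, and for most maternally expressed units, while Peg3, Magel2 and other paternally expressed units sit above control.

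Markers of other states and cell types were read as whole lists. Of 16 tested 2-cell-like genes, a rare totipotent-like state of ES cultures, 15 fell and none rose, with a median of -1.71. Of the 21 units found 18 were under 1 FPKM in both CDGC1 libraries, so most passed the filter only through other libraries, and the count is a description. Zscan4c, a defining member, was at 0.0226 and 0.0137 FPKM in CDGC1, 7.71 and 6.94 in control and 2.07 and 3.73 in CDGC6 (log2 difference from control -3.03 ± 0.21, adjusted p = 9.85e-05), and the Zscan4 copies share reads. The primordial germ cell list had 11 of 17 lower and none higher (2 were higher without CDGC1 library 2). Of the 19 germ cell units found 10 were under 1 FPKM in both CDGC1 libraries, so this count is a description too. Kit, the stem cell factor receptor of germ cells, was at 0.673 and 1.098 FPKM in CDGC1 against 10.3 and 9.83 in control (log2 difference -2.56 ± 0.22, adjusted p = 0.000234).

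Epithelial markers fell in 12 of 16 cases and rose in 2, with a median of -1.39 (1 rose without control library 1 or 2). Of these 16, 5 were under 1 FPKM in both CDGC1 libraries and passed the filter only through other libraries. Cldn7, a tight junction claudin, was at 0.0448 and 0.0256 FPKM in CDGC1 against 27.1 and 28.6 in control (log2 difference -4.80 ± 0.09, adjusted p = 1.65e-06). Cldn4 was at 2.34 and 2.19 against 66.2 and 77.2 FPKM (log2 difference -4.47 ± 0.17, adjusted p = 1.26e-05). Both claudins were low in both CDGC1 libraries and high in every control and CDGC6 library. Cdh1, E-cadherin, was at 81.5 and 76.7 against 149 and 151 FPKM, lower but still high in CDGC1 (log2 difference -0.91 ± 0.06, adjusted p = 0.00011). Cdh2, N-cadherin, was at 21.5 and 28.8 against 8.06 and 8.91 FPKM and rose (log2 difference 1.45 ± 0.17, adjusted p = 0.000957). Epcam was at 148 and 169 against 119.9 and 122 FPKM (log2 difference 0.38 ± 0.08, adjusted p = 0.0106), a call that was lost without control library 1 or 2.

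Of 22 tested fibroblast or feeder markers 16 rose and 3 fell, with a median of 1.02. Their summed level was 1564 and 1163 FPKM in CDGC1, 569.5 and 658 in control and 537 and 576 in CDGC6. Vim, the intermediate filament vimentin, made up most of that sum in CDGC1, at 899 and 702 FPKM against 112 and 132 in control (log2 difference 2.70 ± 0.15, adjusted p = 5.08e-05). Col1a2, a type I collagen chain, was at 8.52 and 8.64 FPKM in CDGC1, 0.381 and 0.391 in control and 5.67 and 8.11 in CDGC6 (log2 difference from control 2.79 ± 0.15, adjusted p = 4.48e-05). The joint entry S100a3,S100a4, which holds a fibroblast calcium-binding protein, was at 28.5 and 23.7 FPKM in CDGC1, 2.96 and 3.5998 in control and 20.7 and 36.6 in CDGC6 (log2 difference from control 2.66 ± 0.26, adjusted p = 0.000382). For Col1a2 and S100a3,S100a4 both CDGC6 libraries were above both controls as well. Of the 25 markers found, 4 were under 1 FPKM in both CDGC1 libraries. Among these, Dcn was at 0.0884 and 0.387 FPKM in CDGC1, 0.0994 and 0.116 in control and 0.568 and 0.311 in CDGC6, and Lum at 0.0563 and 0.0151, 0.0338 and 0.0328 and 0 and 0 FPKM. Fn1, fibronectin, was at 47.4 and 36.2 against 97.8 and 113 FPKM and fell (log2 difference -1.32 ± 0.14, adjusted p = 0.000553). Whether feeder cells were used is not given in the labels, and their part in the collagen values was not tested. Of the 20 testis somatic genes 5 were tested, 2 higher and 3 lower. The risers were Cyp11a1, at 1.99 and 1.79 against 0.574 and 0.527 FPKM, and Wt1, at 5.89 and 3.84 against 2.17 and 1.63 FPKM. Those that fell included Nr0b1, counted above as a naive factor, and the joint entry Insl3,Jak3. The Sertoli and Leydig genes Fshr and Cyp17a1 were listed at 0 in both CDGC1 libraries. Of the leukocyte markers 3 units were tested and fell (1 without control library 2), of which one is a merged entry of Cd68 with the translation factor Eif4a1 and others and cannot be read as Cd68, and Ptprc was at 0.00707 and 0.0171 FPKM. Of 10 tested primitive endoderm markers 3 rose and 4 fell (5 rose without CDGC1 library 1), with Hnf4a and Ttr listed at 0 in both CDGC1 libraries. The risers were Foxa2, given above, Sparc, a matrix glycoprotein of parietal endoderm, at 244 and 179 against 106 and 103 FPKM, and Lamb1, a laminin chain, at 48.3 and 46.6 against 29.97 and 30.8 FPKM. Of 13 tested trophoblast markers 1 rose, which was Eomes, and 8 fell. The neural list had 3 of 7 higher and 3 lower: Nes, the neural progenitor filament nestin, was at 57.9 and 55.2 against 21.99 and 23.3 FPKM, and Tubb3 at 4.77 and 6.06 against 38.2 and 38.2. Of 6 tested mesoderm markers 1 rose, which was T, and 4 fell (1 without control library 1, 2 without control library 2).

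The medians of the metabolic lists lay between 0.148 and 0.201. In the glycolysis list 9 of 30 rose (30.0%) and 5 fell (16.7%), against 23.5% and 27.0% of all units, with a median of 0.166. Slc16a3, the lactate exporter MCT4, was at 191 and 187 FPKM in CDGC1, 35.7 and 33.4 in control and 106 and 62.02 in CDGC6 (log2 difference from control 2.42 ± 0.24, adjusted p = 0.000415). Ldha, which makes lactate, was at 1475 and 1648 FPKM in CDGC1, 776 and 729 in control and 1519 and 1463 in CDGC6 (log2 difference from control 1.05 ± 0.10, adjusted p = 0.000322). Ldhb, the subunit that favours pyruvate, was at 47.8 and 45.9 FPKM in CDGC1, 124 and 129 in control and 247 and 243 in CDGC6 (log2 difference from control -1.41 ± 0.06, adjusted p = 1.7e-05). Ldha was thus higher in both derived lines, while Ldhb was lower in CDGC1 and higher in CDGC6 than in control. In the oxidative phosphorylation list 8 of 29 rose (27.6%), near the background of 23.5%, and 2 fell (6.9%), below the background of 27.0%. Fewer rose without control library 1 or 2 or without CDGC1 library 1. In serine and one-carbon metabolism 7 of 18 rose and 3 fell (5 fell without CDGC1 library 2). Tdh, threonine dehydrogenase, on which naive cells are known to rely, was at 0.88 and 0.49 FPKM in CDGC1 and 234 and 245 in control. Gldc, of the glycine cleavage system, was at 4.83 and 6.29 against 78.8 and 77.1 FPKM (log2 difference -3.60 ± 0.12, adjusted p = 8.99e-06). The joint entry Amt,Nicn1, which holds another subunit of that system, was at 9.24 and 10.2 against 35.7 and 40.2 FPKM (log2 difference -1.86 ± 0.11, adjusted p = 5.08e-05). The 3 genes that fell were these catabolic ones. Phgdh, the first enzyme of serine synthesis, was at 102 and 102 against 57.4 and 56.1 FPKM and rose (log2 difference 0.83 ± 0.07, adjusted p = 0.000227).

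The machinery of antigen presentation was high in CDGC1. Of 14 tested MHC class I genes 10 rose and none fell, with a median of 1.09, and 1 fell without Dnd1 knockdown library 1 or 2. The joint entry Psmb8,Tap2, which holds an immunoproteasome subunit and a peptide transporter, was at 165 and 186 FPKM in CDGC1, 9.08 and 10.8 in control and 30.1 and 21.2 in CDGC6 (log2 difference from control 4.01 ± 0.17, adjusted p = 1.8e-05). Psmb9, another immunoproteasome subunit, was at 17.9 and 22.6 FPKM in CDGC1 against 2.92 and 3.72 in control (log2 difference 2.30 ± 0.14, adjusted p = 7.35e-05). Erap1, which trims peptides for loading, was at 42.6 and 32.1 against 4.88 and 5.47 FPKM (log2 difference 2.62 ± 0.20, adjusted p = 0.00016). CDGC1 exceeded every control and CDGC6 library in all 3 units. The light chain gene B2m, named after its values were seen, was at 63.8 and 61.8 against 37.2 and 41.4 FPKM (log2 difference 0.67 ± 0.11, adjusted p = 0.00294). Nlrc5, the transactivator of class I genes and likewise named after the fact, was at 0.0782 and 0.147 FPKM in CDGC1 and 0.213 and 0.214 in control and was not tested. In the interferon list 7 of 17 rose and 2 fell (1 without control library 1 or 2), with a median of 0.122. Isg15, a ubiquitin-like interferon target, was at 40.9 and 51.2 against 2.96 and 3.64 FPKM (log2 difference 3.45 ± 0.15, adjusted p = 1.78e-05). Irf1, an interferon regulatory factor, was at 98.5 and 109 against 23.9 and 25.3 FPKM (log2 difference 2.03 ± 0.19, adjusted p = 0.000381). Ifitm3, a membrane protein of pluripotent and germ cells, was at 69.3 and 71.8 against 158 and 161 FPKM and fell (log2 difference -1.16 ± 0.10, adjusted p = 0.000201). Isg15 and Irf1 were thus higher and Ifitm3 lower in both CDGC1 libraries than in both controls.

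Of 387 tested genes in the surface families 131 rose (33.9%) and 112 fell (28.9%), against 23.5% and 27.0% of all units, with a median of 0.072. Claudins and other tight junction genes had 3 of 15 higher and 8 lower (1 was higher without control library 1 or 2). Jam2, a junctional adhesion molecule of naive cells, was at 0.175 and 0.16 FPKM in CDGC1 against 17.1 and 17.2 in control (log2 difference -3.96 ± 0.10, adjusted p = 3.58e-06). Of 20 cadherins and protocadherins 10 rose and 5 fell. Pcdh1 was at 20.6 and 22.2 against 5.05 and 4.505 FPKM (log2 difference 1.96 ± 0.15, adjusted p = 0.000136). Among integrins 5 of 15 rose and 3 fell (5 without CDGC1 library 2). Itgb1, the beta subunit of most matrix receptors, was at 174 and 133 FPKM in CDGC1 against 81.96 and 83.3 in control (log2 difference 0.87 ± 0.12, adjusted p = 0.00178). Itga8, an alpha subunit that pairs with it, was at 12.5 and 12.9 against 2.53 and 2.13 FPKM (log2 difference 2.04 ± 0.21, adjusted p = 0.000465). Both were higher in each CDGC1 library than in any control or CDGC6 library. Itgb4, the hemidesmosome subunit, was listed at 0 in all CDGC1 and CDGC6 libraries and at 3.05 and 2.94 FPKM in control.

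Among the 46 tested CD antigens, surface proteins defined by antibodies, 18 rose (39.1%) and 13 fell (28.3%), against 23.5% and 27.0% of all units. Cd59a,Cd59b, inhibitors of complement lysis, was at 47.8 and 64.4 FPKM in CDGC1, 2.68 and 3.17 in control and 18.5 and 5.31 in CDGC6 (log2 difference from control 3.85 ± 0.49, adjusted p = 0.00116). Cd40, a TNF receptor family member, was at 6.06 and 6.42 FPKM in CDGC1 against 1.09 and 1.16 in control (log2 difference 1.77 ± 0.10, adjusted p = 6.01e-05). Pecam1, an adhesion molecule used to sort naive cells, was at 0.149 and 0.176 against 10.4 and 9.76 FPKM (log2 difference -3.25 ± 0.15, adjusted p = 2.3e-05). In CDGC1 the first and second of these were high in both libraries and Pecam1 was next to 0. Icam1, another adhesion molecule, was at 3.99 and 4.49 against 29.4 and 30.1 FPKM (log2 difference -2.55 ± 0.10, adjusted p = 1.32e-05). Among 50 receptor tyrosine kinases and cytokine receptors 20 rose and 17 fell (11 without control library 1, 10 without control library 2). Flt1, a VEGF receptor, was at 10.9 and 16.9 against 2.02 and 2.79 FPKM (log2 difference 2.11 ± 0.30, adjusted p = 0.0018). Il15ra, a subunit of the interleukin 15 receptor, was at 14.3 and 15.9 against 2.09 and 2.44 FPKM (log2 difference 2.30 ± 0.16, adjusted p = 0.000115). Both receptors were higher in each CDGC1 library than in any control library. Tetraspanins rose in 10 of 20 cases and fell in 5 (3 without control library 1 or Dnd1 knockdown library 1 or 2, and 2 without control library 2), among them Tspan6 at 40.9 and 38.8 against 8.904 and 9.404 FPKM (log2 difference 2.01 ± 0.09, adjusted p = 1.87e-05). Cd9, a tetraspanin of ES cells, was at 63.7 and 58.6 against 145 and 116 FPKM and fell (log2 difference -1.08 ± 0.13, adjusted p = 0.000863).

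Guidance receptors and ligands were set against the 23.5% of all units that rose and the 27.0% that fell. Of 24 semaphorins, plexins and neuropilins 10 rose (41.7%) and 4 fell (16.7%). Sema3e, a secreted ligand of plexin D1, was at 36.04 and 28.2 FPKM in CDGC1 against 7.33 and 6.78 in control (log2 difference 2.03 ± 0.15, adjusted p = 0.00012). Of 17 Eph receptors and ephrins 5 rose (29.4%) and 3 fell (17.6%). Epha7 was at 4.36 and 4.82 against 1.16 and 1.29 FPKM and Ephb3 at 1.57 and 2.102 against 6.74 and 6.89 FPKM, so that one was higher and the other lower in both CDGC1 libraries (log2 differences 1.33 ± 0.12 and -1.47 ± 0.11, adjusted p = 0.000281 and 0.000163). Of 186 tested solute carriers 51 rose (27.4%) and 56 fell (30.1%), against 23.5% and 27.0% of all units. Slc50a1, a sugar transporter, was at 0.129 and 0.138 against 10.2 and 9.46 FPKM (log2 difference -3.25 ± 0.13, adjusted p = 1.69e-05), and Slc46a3, a lysosomal carrier, at 7.17 and 4.71 against 0.492 and 0.387 FPKM (log2 difference 2.25 ± 0.17, adjusted p = 0.000152).

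**Figure D4:**
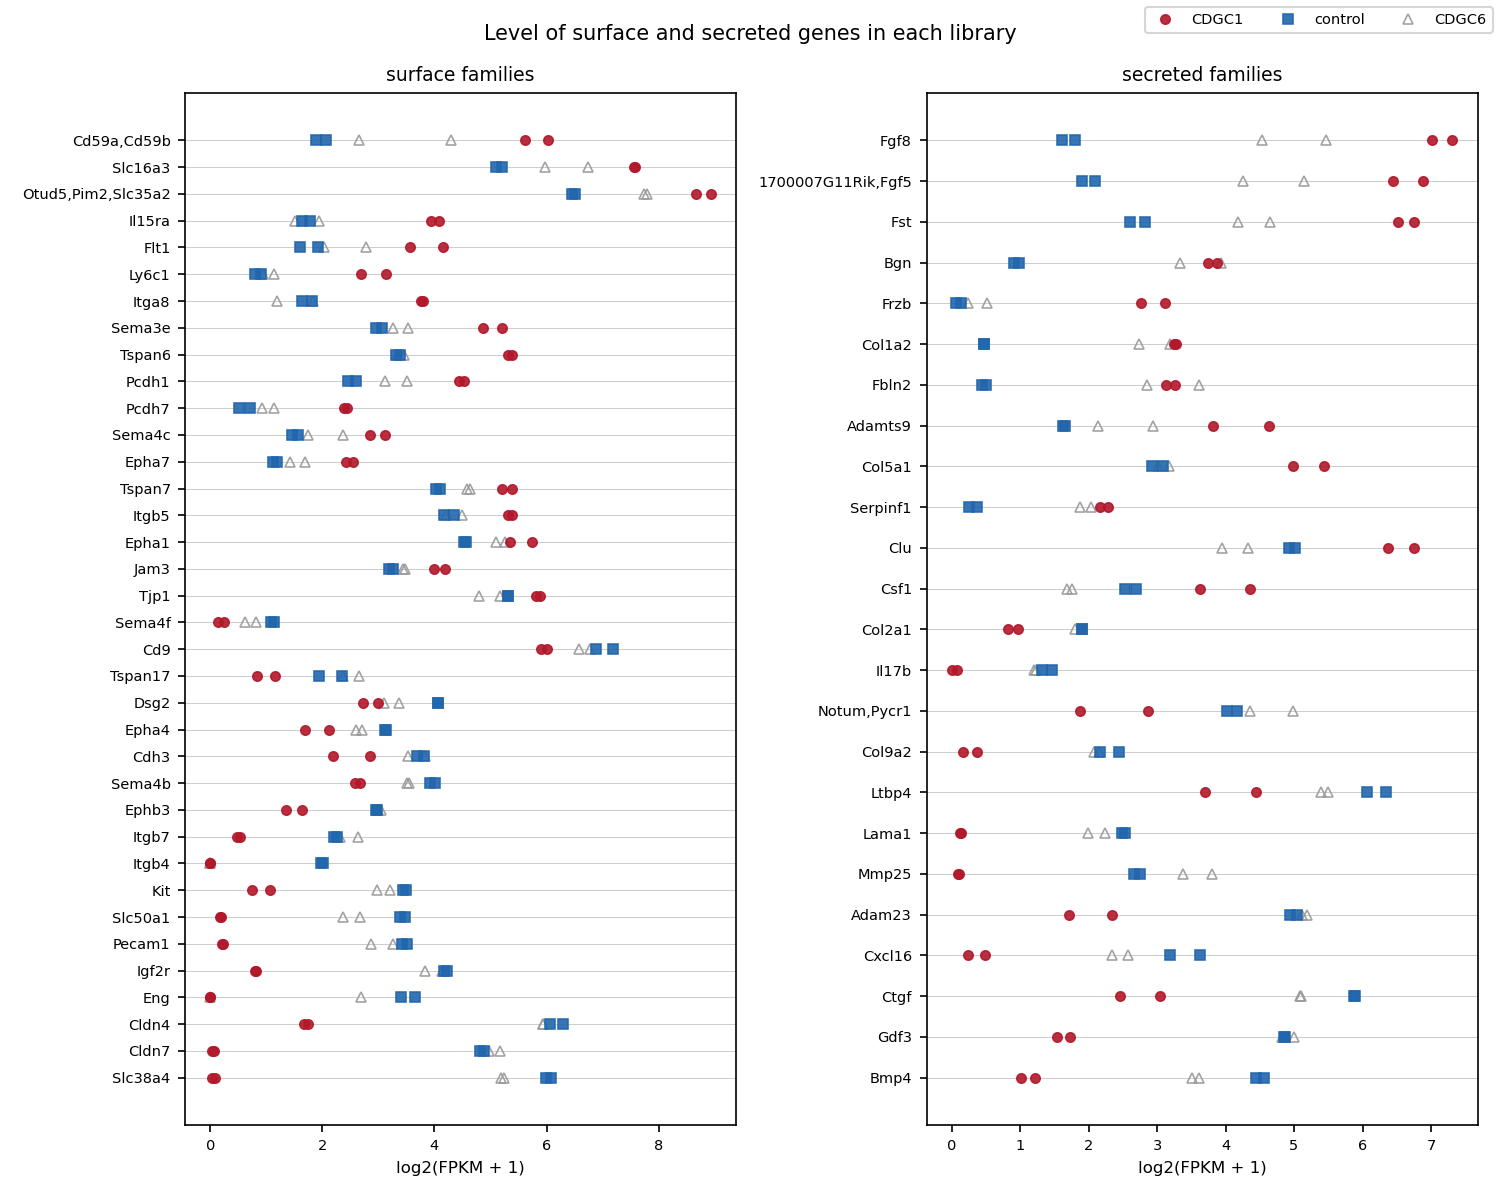
Level, as log2(FPKM + 1), of the surface (left) and secreted (right) genes with the largest called changes per family in each CDGC1 (red circles), control (blue squares) and CDGC6 (grey triangles) library. Cd59a,Cd59b, Slc16a3, Fgf8 and Fst sit at the top of their panels as higher in CDGC1, and Slc38a4, Cldn7, Bmp4 and Gdf3 at the bottom as lower.

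Of 240 tested genes in the secreted families 107 rose (44.6%) and 68 fell (28.3%), with a median of 0.244. Over all units 23.5% rose and 27.0% fell, so the share that fell was near the background. The growth factor family was even, with 21 of 61 higher (34.4%) and 20 lower (32.8%). Fewer were lower without control library 1. Besides the FGF, WNT and BMP ligands above, Vegfc, the lymphatic growth factor, was at 0.461 and 0.422 FPKM in CDGC1 against 5.401 and 5.27 in control (log2 difference -2.14 ± 0.13, adjusted p = 5.8e-05). Among secreted inhibitors and binding proteins 14 of 28 rose and 8 fell (9 rose without control library 1 or 2). Igfbp3, which binds insulin-like growth factors, was at 770.1 and 498 FPKM in CDGC1, 86.003 and 87.5 in control and 94.6 and 64.8 in CDGC6 (log2 difference from control 2.82 ± 0.24, adjusted p = 0.000237). CDGC1 was above every other library. Ltbp4, a latent TGF-beta binding protein, was at 11.9 and 20.8 against 65.9 and 79.8 FPKM and fell (log2 difference -2.13 ± 0.25, adjusted p = 0.000848).

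Matrix genes rose more often than they fell, with 11 of 21 collagens higher and 5 lower (median 0.828) and 23 of 44 other matrix genes higher and 11 lower (median 0.571). Col5a1, a fibril-nucleating collagen, was at 42.5 and 30.6 FPKM in CDGC1, 6.58 and 7.46 in control and 8.002 and 7.04 in CDGC6 (log2 difference from control 2.21 ± 0.17, adjusted p = 0.000144). Bgn, the proteoglycan biglycan, was at 13.7 and 12.4 FPKM in CDGC1, 0.884 and 0.981 in control and 9.13 and 14.3 in CDGC6 (log2 difference from control 2.86 ± 0.19, adjusted p = 9.55e-05). Lama1, the laminin chain of the embryonic basement membrane, was at 0.0943 and 0.0912 FPKM in CDGC1, 4.58 and 4.798 in control and 2.98 and 3.74 in CDGC6 (log2 difference from control -2.38 ± 0.14, adjusted p = 5.17e-05). Col5a1 was high in CDGC1 alone, Bgn was high in both derived lines, and Lama1 was low in CDGC1 alone. Several of these matrix genes also belong to the fibroblast or feeder list, whose summed level was higher in CDGC1 as given above. Among 65 proteases and inhibitors 27 rose (41.5%) and 20 fell (30.8%). Adamts9, a secreted metalloprotease, was at 13.03 and 23.8 FPKM in CDGC1 against 2.15 and 2.09 in control (log2 difference 2.58 ± 0.34, adjusted p = 0.00139). Adam23, a disintegrin without protease activity, was at 2.27 and 4.06 against 29.8 and 32.1 FPKM (log2 difference -2.97 ± 0.20, adjusted p = 9.49e-05). Of 22 chemokines, interleukins and complement genes 11 rose and 4 fell, with a median of 0.638 (7 rose without control library 1 or 2). Csf1, the macrophage growth factor, was at 19.5 and 11.4 against 4.76 and 5.45 FPKM (log2 difference 1.39 ± 0.23, adjusted p = 0.00323), and Cxcl16, a membrane-bound chemokine, at 0.407 and 0.177 against 8.09 and 11.4 FPKM (log2 difference -3.04 ± 0.20, adjusted p = 8.66e-05). Csf1 and Adamts9 were higher, and Cxcl16 and Adam23 lower, in both CDGC1 libraries than in both controls.

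Among units of 1 symbol with no library at 0, the 12 largest rises and the 12 largest falls included several genes outside these lists. Merged entries, among them Dppa5a,Ooep with its larger fall, were not ranked here. Among rises, Mab21l2, a developmental gene of eye and body wall, was at 25.5 and 26.1 FPKM in CDGC1, 0.525 and 0.589 in control and 4.29 and 3.43 in CDGC6 (log2 difference from control 4.11 ± 0.11, adjusted p = 4.45e-06). Mogat2, a monoacylglycerol acyltransferase, was at 26.2 and 24.7, 0.676 and 0.587 and 3.15 and 2.59 FPKM in the same order (log2 difference from control 4.02 ± 0.11, adjusted p = 4.79e-06). Ucma, a cartilage matrix-associated protein, was at 15.4 and 16.3, 0.258 and 0.30 and 1.999 and 1.15 FPKM (log2 difference from control 3.72 ± 0.16, adjusted p = 1.78e-05). CDGC1 was highest in all 3, with CDGC6 between it and control. Among falls, Rps4l, a retroposed copy of a ribosomal protein gene, was at 0.238 and 0.346 FPKM in CDGC1, 321 and 330.1 in control and 306 and 356 in CDGC6 (log2 difference from control -7.98 ± 0.09, adjusted p = 5.03e-07). Reads of such a copy can be shared with its parent gene, so its level is uncertain. Pla2g1b, a secreted phospholipase, was at 0.404 and 0.244, 246 and 111 and 111 and 126 FPKM (log2 difference from control -6.97 ± 0.34, adjusted p = 2.98e-05). Mid1, an X-linked ubiquitin ligase gene, was at 6.53 and 6.47, 329.6 and 479 and 3.28 and 5.24 FPKM (log2 difference from control -5.73 ± 0.26, adjusted p = 2.14e-05). Rps4l and Pla2g1b were low in CDGC1 alone, while Mid1 was low in both derived lines.

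The difference from the other derived line was tested directly in the same limma model. CDGC1 and CDGC6 differed in 5607 of 11900 units (47.1%), with CDGC1 higher in 2739 (23%) and lower in 2868 (24.1%). Among the 20 naive transcription factors 16 were lower in CDGC1 than in CDGC6 and none were higher. Esrrb, an orphan nuclear receptor of the naive network, was at 0.211 and 0.14 FPKM in CDGC1 and 56.2 and 74.6 in CDGC6 (log2 difference -5.81 ± 0.17, adjusted p = 9.31e-06). Pla2g7, a secreted phospholipase that cleaves platelet-activating factor, was at 66.6 and 40.2 FPKM in CDGC1, 3.11 and 2.75 in CDGC6 and 3.42 and 3.08 in control (log2 difference from CDGC6 3.75 ± 0.22, adjusted p = 8.25e-05). Apln was at 62.7 and 62.3 FPKM in CDGC1 and 5.19 and 4.696 in CDGC6 (log2 difference 3.42 ± 0.09, adjusted p = 5.92e-06). Esrrb was near 0, and Pla2g7 and Apln high, in both CDGC1 libraries alone. Fgf8 was higher in CDGC1 than in CDGC6 by 2.16 ± 0.29 on the log2 scale (adjusted p = 0.00179). T did not pass against CDGC6 (log2 difference 0.23 ± 0.27, adjusted p = 0.514), nor did Lefty1,Lefty2 (log2 difference -0.43 ± 0.26, adjusted p = 0.221).

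Levels were also read along the chromosomes, over 8580 units with a mean of at least 5 FPKM in either group. The median log2 difference over these units was 0.00722. On the X chromosome it was 0.286 and 0.293 in the CDGC1 libraries, and 140 of 300 units were higher (46.7%) and 47 lower (15.7%), against 26.1% and 23.6% over all units of that level. CDGC6 stood at 0.085 and 0.078 on X. Chromosome 11 stood at 0.16 and 0.213 in CDGC1 over 725 units, against -0.0502 and -0.0726 in CDGC6. Chromosome 10 stood at 0.122 and 0.165 over 425 units, and chromosome 16 at -0.129 and -0.139 over 279 units, against -0.0849 and -0.0776 in CDGC6 for the latter. Hprt, Tex13, Xlr4a, Rhox5, Apln and Mid1, described above, are X-linked, and Igfbp3 and Wnt3 lie on chromosome 11. These medians are descriptions with no test, and copy number was not measured. Under the alternative settings 52 of 120 values for chromosome medians moved and 68 stayed the same.

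**Figure D5:**
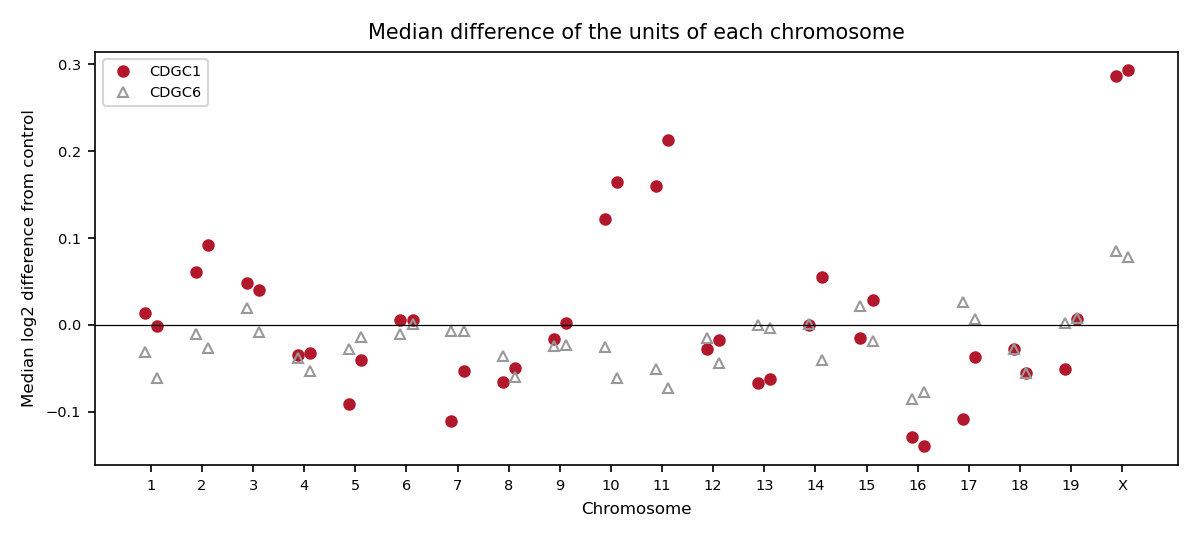
Median log2 difference from the control mean (y axis) of the units with at least 5 FPKM on each chromosome (x axis) in each CDGC1 (red circles) and CDGC6 (grey triangles) library. The 2 CDGC1 libraries sit highest on X (0.286 and 0.293) and next on chromosome 11 (0.16 and 0.213), and lowest on chromosome 16.

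Promoter sequence was described for units of 1 symbol with a RefSeq promoter, 8483 of 11239. Units at least 4-fold lower in CDGC1 had a median of 14 CpG per window (247 promoters), units at least 4-fold higher 18.5 (134 promoters), and all units 21. Windows with fewer than 6 CpG made up 20.6%, 14.2% and 7.46% of these sets. The octamer ATTTGCAT was in 2.43% of promoters of the lower units, 0.746% of the higher units and 1.4% of all. The Klf-type motif GGGTGTGG was in 6.07%, 3.73% and 3.68%, and the TCF motif CTTTGAT in 4.05%, 1.49% and 2.31%. The Esrrb motif TCAAGGTCA was in none of the lower or higher promoters and in 0.236% of all. The T-box motif TCACACCT was in 0.81%, 0.746% and 0.754%, and the AP-2 motif GCCNNNGGC in 21.1%, 27.6% and 26.6%. Both strands were searched and overlaps between motifs were allowed. The 2-cell-like genes that fell were at the low end, with a median of 1 CpG over 7 promoters, of which 4 held GGGTGTGG. Genes of this list have near-identical copies, so these promoters are not independent, and a window without a match says nothing of the factor.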

How the data were processed

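RNA from 8 libraries was sequenced after TruSeq preparation on a HiSeq2500, per the labels' protocols. The authors deposited Cufflinks gene tables with FPKM values for each library, per the file headers. Mapping and quantification tools listed in the submitters' processing notes are TopHat2, Bowtie, Cufflinks and Cuffdiff, with the build mm10 and versions and roles not given in the sources used here. FPKM of all entries with the same gene symbol were summed, giving 1 unit per symbol or merged group of symbols, and entries without a symbol were left out; these held 76.8% to 85.6% of a library's FPKM (lowest in CDGC6 library 2), and the summed FPKM of named entries was 622744 to 687218 per library. FPKM are relative to each library's total, so a few abundant transcripts move all others, and they carry no depth.

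Values were tested as log2(FPKM + 1), a scale that understates changes of low genes, with limma 3.58.1 in R 4.3.3 over all 8 libraries, with 1 mean per group, a trended empirical Bayes spread, two-sided tests and Benjamini-Hochberg adjustment. Units needed at least 1 FPKM in 2 or more libraries. The procedure was tested on simulated data. Tables were made with Python 3.11.15, pandas 2.3.3, numpy 2.4.6 and scipy 1.17.1, and figures with matplotlib 3.10.9.

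The genes named are Dnd1, Hprt, Pou5f1, Sox2 and Nanog, the 12 largest called rises and falls among units of 1 symbol (merged entries and predicted or clone names left out) with groups that did not overlap, no library at 0 and 5 FPKM or more on average in the higher group, up to 4 called units in each direction from each of 31 lists and 15 families, the corresponding extremes against CDGC6, and defining cell type markers near 0. Others are said to be named after their values were seen. The members, lists and families were chosen with earlier results of these data known. A group listed at 0 in every library is given without a fold. The promoter sequences are RefSeq's, of GRCm38.p6. Alternatives covered the pseudocount (0.1 and 5), the filter, quantile normalization, median-ratio scaling, the groups fitted, a replicate block and each library left out.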

Additional observations from a re-analysis of the deposited data

Results flagged for a closer look

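The contrast of CDGC1 with CDGC6 was drawn attention to because 5607 of the 11900 units differed by limma. Its test compares both derived lines directly, and the control libraries entered only its spread and the filter. Of the 320 named units 260 differed between the lines, and 5 of them moved in opposite directions from control: CDGC1 was called against control and the means of the lines lay at least 2-fold to opposite sides of the control mean. The opposite direction of CDGC6 from control was not tested on its own.

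The log2 difference CDGC1 minus CDGC6 was -7.50 for AF357359,Rian and -7.06 for Meg3, the maternally expressed long RNAs of chromosome 12, where CDGC6 was above control (by 2.17 for AF357359,Rian and 1.10 for Meg3) and CDGC1 far below it. It was -5.66 for Dppa3, which encodes the maternal factor Stella and stood 1.29 above control in CDGC6. Pfkp, the platelet isoform of phosphofructokinase, differed by -2.75 and stood 1.06 above control in CDGC6. Nefm, a neurofilament gene, differed by 2.89, with CDGC6 at -1.25 relative to control. The departures of both lines from control share the control libraries, while the estimated difference between the lines does not use them.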

How the results depend on the processing

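The number of units called in CDGC1 against control (6009) and of units called in CDGC1 against CDGC6 (5607) stayed within 1.5 times under every alternative run except when a change of at least 2-fold was also required, which left 1934 and 1663. Leaving out 1 library gave 4098 to 6067 units against control, lowest without control library 1, and 4466 to 5721 against CDGC6, lowest without CDGC6 library 2. With the replicate number as a block, 5782 and 5366 units were called; the numbers do not pair the libraries, since same-numbered deviations correlated at -0.079 to 0.145, and the block is given for completeness. Of 6288 values for named units against control, 6082 kept their call and direction, 199 lost the call, 7 gained it and none reversed. Against CDGC6 3 reversed, all under quantile normalization: Ankrd1, CDGC1 against CDGC6, became 0.467, Col11a1, CDGC1 against CDGC6, 0.0840 and Sema4f, CDGC1 against CDGC6, 0.0454. Of 1920 list counts 146 moved by more than 1.5 times; those from single libraries stand beside the lists. In addition, germ line falls numbered 8 at a filter of 5 FPKM and 7 among units of 1 symbol with no 0, MHC class I rises 6 among the latter, growth factor falls 10 under quantile normalization or the filter of 5 FPKM, and streak falls 0 at that filter. Of 120 values for chromosome medians 52 moved and 68 stayed the same. The causes were not tested. The split of imprinted genes by allele was added after seeing the data. With 2 libraries per group and no counts, precision at low FPKM is unknown.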
